A study of Homo sapiens with 6 samples.

Results

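The genes described here are 38 genes of DNA replication and of the step from G1 to S phase, out of 27264 gene rows in the deposited count table. They were chosen by symbol and not by a threshold on their values, but with earlier results of these data known. All 38 were found in the table and all 38 passed the filter on low counts, which kept 11732 genes. The 6 libraries came from DLD-1, an established epithelial colorectal cancer cell line of colon origin. The library descriptions add TR21 to the name of the line in all 6 libraries, and the labels do not say what TR21 is. Each library holds cells labelled ZEB2 WT, from 1 of 3 clones named WT37, WT5 and WT2, grown with DOX, short for doxycycline, or without it, with 1 library per clone and condition. The labels call the cells with DOX mesenchymal and the cells without DOX epithelial, and the series title concerns epithelial-to-mesenchymal transition mediated by ZEB2, a zinc finger repressor of epithelial genes. Every clone in both groups carries the same ZEB2 WT label, and each is a line grown from a clone, so clone and culture cannot be told apart. No library used here is labelled as DOX-treated cells that lack ZEB2 WT, so an effect of the antibiotic itself cannot be told apart from that of ZEB2. The labels used here give no dose and no length of treatment.

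Cells copy their genome once per division. In G1 the origin recognition complex, CDC6 and CDT1 load a ring of the subunits MCM2 to MCM7 onto origins. In S phase CDC45 and the GINS complex turn that ring into an active helicase, polymerases alpha, delta and epsilon copy the strands, PCNA and its RFC loader hold them in place, and FEN1 and LIG1 finish the lagging strand. Most of these genes are transcribed in a wave at the G1/S boundary by E2F factors, once cyclin-dependent kinases have lifted the block set by the RB protein, and their levels are therefore widely used as a readout of proliferation in colorectal tumour cells.

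Libraries were made from the 3′ ends of messenger RNA (QuantSeq 3′ FWD), so a read stands for a transcript end whatever the length of the gene. Depth was 5440093 to 7164426 reads in genes. Levels are given as CPM, in which each count is divided by the TMM-adjusted number of reads in genes and put on a common scale. ZEB2 had 22, 9 and 20 reads with DOX in WT37, WT5 and WT2, against 3, 5 and 9 reads without DOX. No source used here gives the 3′ end of the ZEB2 WT transcripts. Whether these reads count all of them is therefore not known. All 10 epithelial markers examined were detected in both groups, with a summed level of 4341 to 5992 CPM with DOX and 7009.7 to 8864 CPM without DOX. Not all of them fell. With DOX 8 of the 10 were lower in all 3 clones, and 1, CDX2, was higher in all 3. The log2 differences of CDX2 were 0.43 in WT37, 0.26 in WT5 and 0.55 in WT2. Of 10 mesenchymal markers, ZEB2 among them, 9 were detected, and TWIST1 was at 0 in all libraries. Their summed level was 10.9 to 23.0 CPM with DOX and 12.2 to 16.6 CPM without DOX. The mesenchymal label of the cells with DOX was therefore not matched by a high level of these markers. The 4 leukocyte markers summed to 25 to 78 reads per library, of which CD14 alone had 22 to 69. Of 3 endothelial markers 2 were in the table, with 0 to 3 reads per library together and PECAM1 at 0 in all. Of 4 fibroblast or pericyte markers 3 were in the table, with 0 to 10 reads per library together.

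The stretches of 250 bases before the annotated transcription start are shown for 4 members. They are the 3 with the smallest p for DOX in the edgeR fit with the clone as block and the 1 with the smallest p between clones. The stretches come from RefSeq on GRCh38.p14 and are written 5′ to 3′ on the strand of the gene, ending at the base before the RefSeq start. GENCODE 29 has an outermost start of FEN1 before its window, of CDC6 near the far end of its window, of E2F1 near the close of its window and of CHAF1A after it. Capitals mark the words TTTCCCGC, TTTCCCGG, TTTCGCGC, TTTCGCGG, TTTGCCGC, TTTGCCGG, TTTGGCGC and TTTGGCGG on either strand, which follow the site that E2F factors bind, and CCAAT or its complement ATTGG, the site of the factor NF-Y.
CDC6 chr17:40287629-40287878 (plus strand): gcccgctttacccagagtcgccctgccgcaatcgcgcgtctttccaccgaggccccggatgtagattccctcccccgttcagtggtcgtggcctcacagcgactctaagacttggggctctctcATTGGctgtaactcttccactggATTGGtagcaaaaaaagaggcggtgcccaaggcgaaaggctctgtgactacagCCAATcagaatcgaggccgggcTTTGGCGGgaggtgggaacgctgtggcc
E2F1 chr20:33686386-33686635 (minus strand): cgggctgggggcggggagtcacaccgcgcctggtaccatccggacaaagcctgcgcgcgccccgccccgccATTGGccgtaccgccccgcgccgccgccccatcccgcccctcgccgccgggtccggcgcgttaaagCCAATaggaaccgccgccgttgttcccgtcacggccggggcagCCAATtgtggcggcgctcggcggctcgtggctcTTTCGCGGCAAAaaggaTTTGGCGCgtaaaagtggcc
CHAF1A chr19:4402390-4402639 (plus strand): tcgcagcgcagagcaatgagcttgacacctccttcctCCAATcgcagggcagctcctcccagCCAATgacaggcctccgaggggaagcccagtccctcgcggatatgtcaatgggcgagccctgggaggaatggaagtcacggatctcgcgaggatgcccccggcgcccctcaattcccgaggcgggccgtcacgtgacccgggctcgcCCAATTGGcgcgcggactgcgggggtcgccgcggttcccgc
FEN1 chr11:61792661-61792910 (plus strand): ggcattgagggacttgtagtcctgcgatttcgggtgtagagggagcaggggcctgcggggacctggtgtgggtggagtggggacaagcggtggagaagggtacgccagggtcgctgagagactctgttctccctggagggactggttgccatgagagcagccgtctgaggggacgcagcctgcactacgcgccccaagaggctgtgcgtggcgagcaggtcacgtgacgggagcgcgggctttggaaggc

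CDC6 holds TTTGGCGG beginning 28 bases before its start and CCAAT or ATTGG at 50, 103 and 126 bases. E2F1, itself a factor of the family, holds TTTCGCGG at 37 bases, the overlapping complement of TTTGCCGC at 33 bases and TTTGGCGC at 20 bases, with CCAAT or ATTGG at 70, 113 and 179 bases. CHAF1A holds CCAAT or ATTGG at 38, 41, 188 and 213 bases, of which those at 38 and 41 bases share letters. No E2F word lies in the stretch shown for CHAF1A, but its longer search window, described next, holds such a word. FEN1 holds none of these words in the window shown. Windows that also take in the first 50 bases after the start were searched on both strands for 34 members. An E2F word lay in at least 1 window of 23 of those 34 members (67.6%), beside 12.9% of 9099 tested genes counted in the same way and 6.19% of all 35116 windows counted singly. A CCAAT word lay in 22 of the 34 (64.7%), beside 43.8% of those tested genes and 34.6% of all windows. MCM4, MCM5, GINS4 and CCNE2 were not searched. A match is a run of letters and was not tested as a binding site, and a window with no match says nothing about the factor.

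The members were abundant transcripts. Mean levels over the 6 libraries ran from 4.62 CPM for CCNE2 to 660 CPM for RRM1, with a median of 80.3 CPM, against 23.6 CPM for all tested genes, and 30 of the 38 were above that second value. Each member had between 20 and 4626 reads in each library. The coefficient of variation over the 6 libraries was 5.11% to 24.7%, with a median of 13.1%. Summed over the 38 genes the level was 4630.4, 5508 and 5264 CPM with DOX in WT37, WT5 and WT2, against 4969 CPM, 5570.1 CPM and 5717 CPM without DOX. The summed level was lower with DOX in each clone, and it was lowest in WT37 in both conditions.

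Replication transcripts with DOX were near their levels without DOX. The log2 difference of the members, with DOX over without, had a median of −0.095, against 0.0077 for the other tested genes, and ran from −0.35 in CDC6 to 0.41 in CCNE2. It was below 0 in 28 of 38 members, beside 48.7% of all tested genes. Scaling by library totals alone raised all genes together, with an all-gene median of 0.045 against 0.0071, and then 24 of 38 members and 41.3% of all tested genes were below 0. With DOX, 0 of the 38 members passed the test against the libraries without DOX, in which edgeR's quasi-likelihood test was adjusted over all genes by the Benjamini-Hochberg method at 0.05. The same test called 0 of 11732 genes (0%), with 709 genes and 1 member at an unadjusted p under 0.05, and DESeq2 called 57 genes and limma-voom 0, no member among them. With the clone as replicate block edgeR called 152 genes (1.3%), 77 higher (0.656%) and 75 lower (0.639%), again with 0 members, while 3 members had an unadjusted p under 0.05. The smallest adjusted p among members was 0.690 without the block and 0.153 with it, both for CDC6. For 35 of 38 members the 95% interval of the blocked fit lay within a 1.5-fold change in either direction, a share that was 59.1% over all tested genes. Without the block this held for 27 of 38 members and 46.7% of all tested genes. Such intervals narrow as reads rise, and the members had a median of 80.3 CPM against 23.6 CPM for all tested genes. These shares therefore do not compare genes of like level. The median of the members was −0.021 when WT37 with DOX was left out and −0.16 when WT5 with DOX was left out. In bulk RNA, fewer cells in S phase and less of each transcript per cell cannot be told apart.

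The level with DOX was below the level without DOX in all 3 clones for 12 of 38 members, beside 17.5% of all tested genes, and above it in all 3 clones for 0 of 38 members, beside 17.6%. All 3 libraries with DOX lay below all 3 libraries without DOX for 6 of 38 members, namely CDC6, GINS3, CHAF1B, MCM10, PCNA and MCM4, beside 6.09% of all tested genes. The opposite order held for 0 members, beside 5.3%. All members share the same libraries, and no member among them passed the adjusted test.

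**Figure D1:**
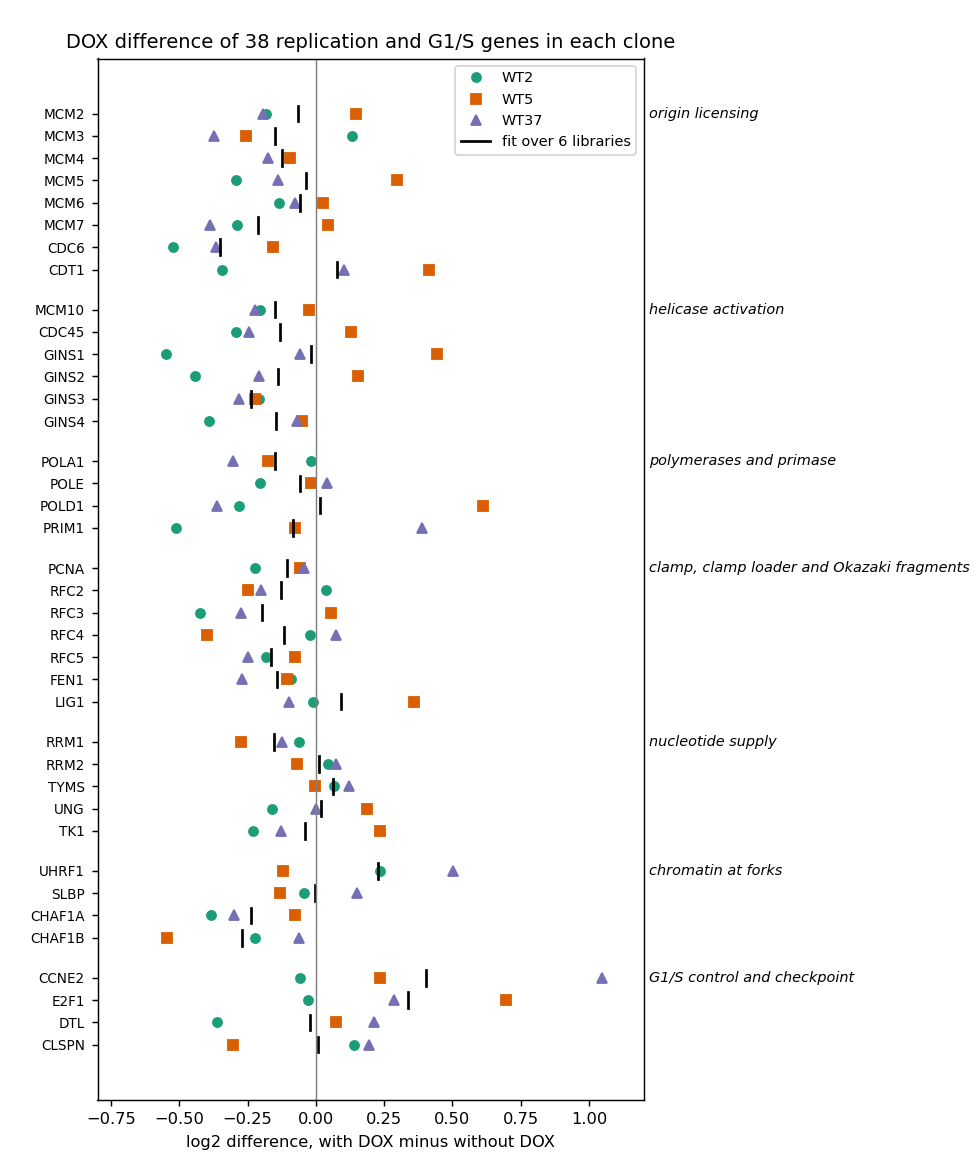
Log2 difference with DOX minus without DOX (horizontal axis) for each of the 38 genes (rows, by role). Symbols are the single pair of libraries of a clone and the black tick is the edgeR estimate over 6 libraries. Of the 38 ticks 28 lie left of 0, the symbols of each clone lie more often left of 0 than right of it (26 in WT37, 22 in WT5 and 32 in WT2), and CCNE2 and E2F1 have the ticks farthest to the right.

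Among the 8 licensing genes the log2 difference had a median of −0.095, with 7 of 8 below 0. CDC6 (ENSG00000094804, chromosome 17, 40287633 to 40304657, plus strand), the ATPase that recruits the helicase ring to origins, had 84.1, 95.05 and 89.9 CPM with DOX in WT37, WT5 and WT2, against 108, 106 and 129 CPM without DOX. All 3 levels with DOX were below all 3 without it, and the gap was widest in WT2. The log2 difference was −0.35 (SE 0.128, 95% interval −0.64 to −0.067), at an edgeR adjusted p of 0.690, and of 0.153 with the clone as block. It passed the threshold in the blocked fit without clone WT5, where its log2 difference was −0.44 at an edgeR adjusted p of 0.0215. CDT1, the partner of CDC6 in loading and a target of destruction in S phase, had 70.0, 112 and 75.0 CPM with DOX in WT37, WT5 and WT2, against 65.2, 84.4 and 95.1 CPM without DOX. The clones did not share a direction for CDT1, with log2 differences of 0.10 in WT37, 0.41 in WT5 and −0.34 in WT2.

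The 6 subunits of the MCM ring are present in equal numbers in the loaded ring, and their transcripts differed in level here. MCM4, MCM2 and MCM7 averaged 307, 293 and 273 CPM with DOX, and 334, 307 and 316 CPM without DOX. MCM3, MCM5 and MCM6 averaged 162, 122 and 122 CPM with DOX, and 180.2, 126 and 127 CPM without DOX. Every library of MCM4, MCM2 and MCM7 lay above every library of MCM3, MCM5 and MCM6. Within each library MCM3 lay above MCM5 and MCM6, although its lowest library was below the highest library of each. Counts of transcript ends can differ between genes in capture as well as in abundance, which was not tested.

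MCM7 had 245, 289.7 and 284 CPM with DOX in WT37, WT5 and WT2, against 320.3, 281 and 347 CPM without DOX. WT37 and WT2 were lower with DOX and WT5 was not, so the groups overlapped. Its log2 difference was −0.21 (SE 0.128) at an edgeR adjusted p of 0.921, or 0.403 with the clone as block. In the blocked edgeR fit without WT5 it was −0.34 at an adjusted p of 0.0377. MCM4 had 306, 309 and 305 CPM with DOX in WT37, WT5 and WT2, against 345, 330.4 and 327 CPM without DOX. The groups did not overlap for MCM4, yet the gap was small, with a log2 difference of −0.12 and a 95% interval of −0.36 to 0.11.

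MCM3 had 132, 163 and 192 CPM with DOX in WT37, WT5 and WT2, against 171, 194 and 175 CPM without DOX. WT2 ran opposite to the other clones, and the log2 difference was −0.15 with an interval of −0.48 to 0.17. MCM2, the subunit that also carries histones at the fork, had 251, 338 and 291 CPM with DOX in WT37, WT5 and WT2, against 287, 305 and 330.2 CPM without DOX. In MCM2 the clone WT5 was higher with DOX and the others lower. MCM5 had 106, 146 and 116 CPM with DOX in WT37, WT5 and WT2, against 116, 118 and 142 CPM without DOX. MCM6 had 116, 133 and 116 CPM with DOX in WT37, WT5 and WT2, against 122, 131 and 128 CPM without DOX. For MCM5 and MCM6 too, WT5 had the higher level with DOX while WT37 and WT2 had the lower one. Their log2 differences were −0.067, −0.036 and −0.060, and that of MCM5 came to 0.00063 under library totals alone, the scaling that raised all genes together.

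**Figure D2:**
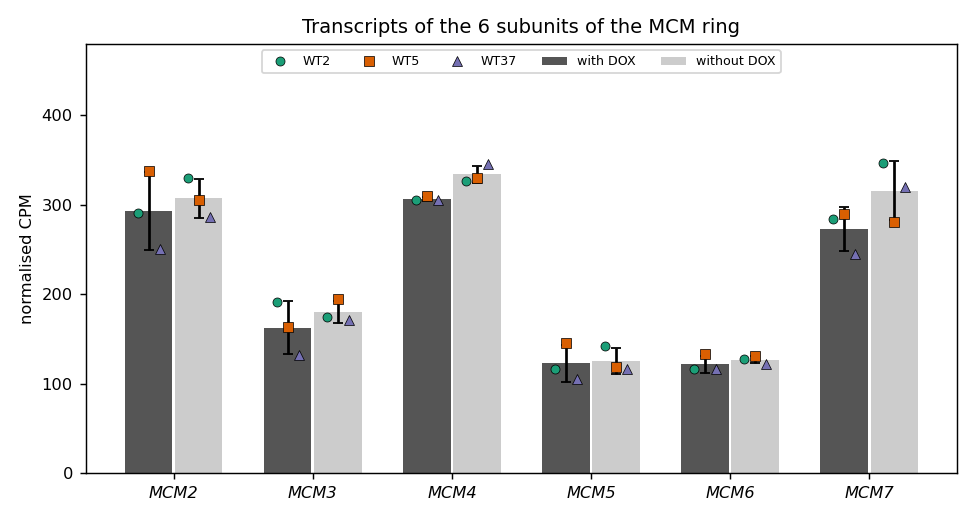
Normalised CPM (vertical axis) of the 6 MCM ring transcripts, with DOX (dark bars, left) and without DOX (light bars, right). Bars are means of 3 clones, whiskers are SD and symbols are single libraries. MCM2, MCM4 and MCM7 stand between 273 and 334 CPM on average, above MCM3, MCM5 and MCM6, and the whiskers of the conditions overlap for all but MCM4.

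The 6 genes that turn the loaded ring into a helicase all had log2 differences below 0, from −0.24 to −0.018, with a median of −0.14. None of the 6 passed the edgeR test, and their edgeR adjusted p ran from 0.935 to 0.997, or 0.496 to 0.948 with the block. GINS3, a subunit of the GINS complex that binds the ring, had 20.4, 22.0 and 19.1 CPM with DOX in WT37, WT5 and WT2, against 24.8, 25.6 and 22.0 CPM without DOX. Its levels with DOX were lower in each clone by a similar amount, with log2 differences of −0.28, −0.22 and −0.21 in WT37, WT5 and WT2. GINS2 had 77.7, 110.2 and 72.5 CPM with DOX in WT37, WT5 and WT2, against 89.7, 99.1 and 98.5 CPM without DOX, where WT5 ran opposite to the others. GINS1 spread most between clones, with a log2 difference of 0.44 in WT5 and −0.55 in WT2. For MCM10, an initiation factor, the log2 difference was −0.15, and for CDC45, the helicase cofactor, it was −0.13.

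The polymerase and primase genes were among the scarcer members, with 6.92 to 44.0 CPM per library, so counting error weighs more on them. Their log2 differences were −0.15 for POLA1, −0.057 for POLE, 0.014 for POLD1 and −0.082 for PRIM1. POLA1, the catalytic subunit of the polymerase that starts each strand, had 26.5, 39.0 and 42.6 CPM with DOX in WT37, WT5 and WT2, against 32.7, 44.0 and 43.1 CPM without DOX. It was lower with DOX in each clone, by the least in WT2. PRIM1, the small primase subunit, had 12.9, 17.7 and 11.5 CPM with DOX in WT37, WT5 and WT2, against 9.86, 18.6 and 16.4 CPM without DOX, with WT37 opposite to the other clones. The 3′ ends of POLD1 and PRIM1 lie within another annotated gene, which makes their counts uncertain to that extent.

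Of the 7 genes of the clamp, its loader and Okazaki fragment processing, 6 had log2 differences below 0, with a median of −0.13. PCNA, the sliding clamp, averaged 288 ± 13.8 CPM with DOX and 310.4 ± 8.17 CPM without DOX (SD, n = 3 each), with all libraries with DOX below all without it. RFC5, a clamp loader subunit, had 97.2, 125 and 124 CPM with DOX in WT37, WT5 and WT2, against 115, 132 and 141 CPM without DOX. RFC5 was lower with DOX in each clone, although the groups overlapped. RFC3 had 42.3, 49.5 and 33.5 CPM with DOX in WT37, WT5 and WT2, against 51.2, 47.6 and 45.0 CPM without DOX. RFC2 had 36.3, 44.1 and 52.8 CPM with DOX in WT37, WT5 and WT2, against 41.8, 52.5 and 51.4 CPM without DOX. RFC3 was lower with DOX in WT37 and WT2, and RFC2 in WT37 and WT5. The log2 differences of RFC5, RFC3 and RFC2 were −0.16, −0.20 and −0.13, at edgeR adjusted p of 0.958, 0.953 and 0.979 without the block. With the clone as block the edgeR adjusted p was 0.482 for RFC5 and 0.523 for RFC3. FEN1, the nuclease that trims Okazaki fragment flaps, had 188, 290.0 and 281 CPM with DOX in WT37, WT5 and WT2, against 227, 312 and 299 CPM without DOX. It was lower with DOX in each clone at a log2 difference of −0.14, and it was 0.033 when WT37 with DOX was left out. RFC4 and LIG1, the ligase that seals the fragments, had log2 differences of −0.12 and 0.090.

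The genes of nucleotide supply and uracil removal held the most abundant members, RRM1 and RRM2, and their log2 differences had a median of 0.010 and 2 of 5 below 0. RRM1, the large subunit of ribonucleotide reductase, had 566, 619.6 and 689 CPM with DOX in WT37, WT5 and WT2, against 617, 749 and 718 CPM without DOX. It was lower with DOX in each clone, with a log2 difference of −0.15 (SE 0.129). RRM2, the small subunit whose level tracks S phase, had 522, 660.2 and 666 CPM with DOX in WT37, WT5 and WT2, against 496, 693 and 646 CPM without DOX. Its log2 difference was 0.010 with an interval of −0.34 to 0.36. TK1, the thymidine salvage kinase, had 242, 346 and 312 CPM with DOX in WT37, WT5 and WT2, against 265, 294 and 366 CPM without DOX, and its direction in WT5 was opposite to that in WT37 and WT2. TYMS, which makes thymidylate, and UNG, which removes uracil from DNA, had log2 differences of 0.062 and 0.017.

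CHAF1A and CHAF1B, the subunits of the CAF-1 histone chaperone that lays histones down behind the fork, had the lowest log2 differences of the 4 chromatin genes. CHAF1A had 56.5, 77.5 and 55.9 CPM with DOX in WT37, WT5 and WT2, against 69.6, 81.8 and 73.0 CPM without DOX. CHAF1B had 33.0, 26.0 and 29.6 CPM with DOX in WT37, WT5 and WT2, against 34.5, 37.97 and 34.6 CPM without DOX. Both were lower with DOX in each clone, CHAF1A by the least in WT5 and CHAF1B by the most in WT5. Their log2 differences were −0.24 (SE 0.157, edgeR adjusted p 0.935) and −0.27 (SE 0.148, edgeR adjusted p 0.901). With the clone as block they were −0.25 (SE 0.109, edgeR adjusted p 0.354) and −0.27 (SE 0.135, edgeR adjusted p 0.420). The 3′ end of CHAF1A lies inside UBXN6 on the opposite strand, whose log2 difference was 0.44 in the blocked edgeR fit at an adjusted p of 0.0940. No source used here gives the strand setting of the counting, so how reads of the overlap were assigned is not known. UHRF1, which guides maintenance DNA methylation at forks, had a log2 difference of 0.23, and SLBP, the histone mRNA binding protein, of −0.0045.

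The G1/S control genes were the role with the highest median, 0.17, and held the members with the highest values. E2F1, the factor that drives the G1/S wave, had 73.5, 102 and 69.7 CPM with DOX in WT37, WT5 and WT2, against 60.2, 62.8 and 71.1 CPM without DOX. It was higher with DOX in WT37 and WT5 and about level in WT2, with a log2 difference of 0.34 (SE 0.164, interval −0.025 to 0.70) and an edgeR adjusted p of 0.868, or 0.324 with the block. Without the WT5 library with DOX it was 0.15. CCNE2, a cyclin E that activates CDK2, was the scarcest member and had 5.75, 5.71 and 4.27 CPM with DOX in WT37, WT5 and WT2, against 2.74, 4.83 and 4.44 CPM without DOX. Its log2 difference of 0.41 carried an interval of −0.30 to 1.11 and rested mainly on WT37. DTL, a substrate receptor of the ligase that degrades CDT1, and CLSPN, the checkpoint adaptor claspin, had log2 differences of −0.020 and 0.0066.

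**Figure D3:**
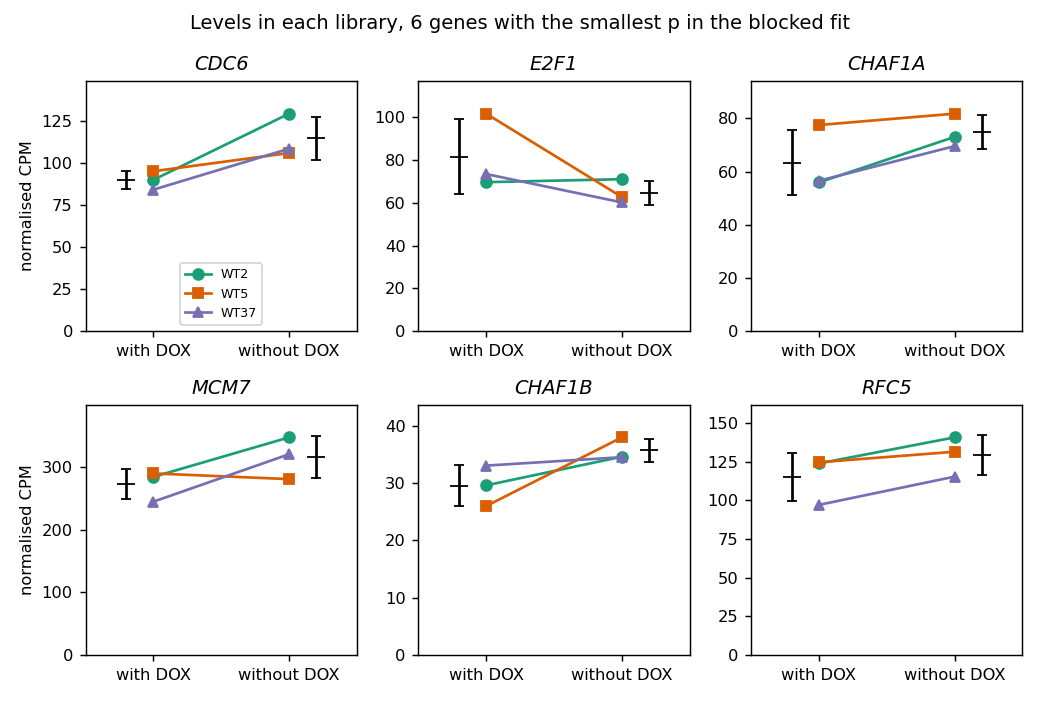
Normalised CPM (vertical axes, from 0) in single libraries of the 6 members with the smallest p for DOX in the blocked edgeR fit, with DOX on the left and without DOX on the right. Horizontal lines and whiskers are the mean and SD of 3 clones. CDC6 and CHAF1B are lower with DOX in every library, E2F1 is higher with DOX in WT5 and WT37, and CHAF1A, MCM7 and RFC5 overlap between conditions.

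The values of members with and without an E2F word overlapped. In the blocked fit the median log2 difference was −0.075 for the 23 members with such a word, 16 of them below 0, and −0.11 for the 11 members without one, 10 of them below 0. E2F1 and CDC6, whose windows are printed above, hold both words and lay at opposite ends of the E2F-word group.

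Taken clone by clone, the median log2 difference of the members was −0.11 in WT37, −0.036 in WT5 and −0.20 in WT2, with 26, 22 and 32 of 38 below 0. Beyond the 95% counting interval of the pair of libraries, 15 members were lower and 6 higher with DOX in WT37, beside 19.8% and 17.6% of all tested genes. In WT5 the members split evenly, with 9 lower and 9 higher, beside 14.6% and 14.8%. In WT2 there were 16 lower and 1 higher, beside 13.7% and 12.3%. These intervals cover counting error only, and with 1 library per clone and condition the difference between clones was not tested. They also narrow as reads rise, and the members were more abundant than most tested genes, so the shares do not compare genes of like level. The value in WT5 was the highest of the 3 clones for 20 of 38 members, beside 38.8% of all tested genes, and the value in WT2 was the lowest for 18 of 38, beside 30.6%. For 8 of 38 members a pair of clones went in opposite directions beyond those intervals, beside 8.46% of all tested genes.

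The clones differed from each other in 1 of the 38 members, FEN1, by edgeR's test over all 3 clones with DOX as a covariate, against 802 of 11732 genes (6.84%). FEN1 (ENSG00000168496, chromosome 11, 61792637 to 61797244, plus strand) averaged 208 CPM in WT37, 301 CPM in WT5 and 289.8 CPM in WT2, and both WT37 libraries lay below the other 4. The log2 difference was −0.48 for WT37 over WT2 (SE 0.109, adjusted p 0.0253) and −0.54 for WT37 over WT5 (SE 0.109, adjusted p 0.0160). Its 3′ end lies within FADS2 on the same strand, which had 15 to 31 reads per library. FEN1 also has an annotated pseudogene, so its count is uncertain to that extent.

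WT37 over WT2 called 1 member, FEN1, among 684 genes (5.83%), with 3.15% higher and 2.68% lower in WT37. WT37 over WT5 called 2 members, FEN1 and RRM2, among 694 genes (5.92%), with 3.17% higher and 2.74% lower in WT37. RRM2 (ENSG00000171848, chromosome 2, 10120698 to 10131419, plus strand) averaged 509 CPM in WT37, 677 CPM in WT5 and 656 CPM in WT2. Its log2 difference was −0.41 for WT37 over WT5 (SE 0.103, edgeR adjusted p 0.0383). The 3′ end of RRM2 lies within AC007240.1 on the same strand and RRM2 has annotated pseudogenes, so its count too is uncertain to that extent. WT5 over WT2 called 0 members by edgeR, with 1 at an unadjusted p under 0.05, among 120 genes (1.02%, with 0.682% higher and 0.341% lower in WT5), and DESeq2 and limma-voom also called 0 members there. Each clone enters with 2 libraries, 1 with DOX and 1 without. The clone fit takes DOX to act alike in all clones, so a DOX difference that varies by clone counts as spread in these tests. With library totals in place of TMM, FEN1 was no longer called for WT37 over WT2 and RRM2 no longer for WT37 over WT5, at edgeR adjusted p of 0.0612 and 0.0812. Leaving out either WT37 library ended every one of these calls, at adjusted p of 0.0551 to 0.348. The call of FEN1 for WT37 over WT2 also ended without either WT2 library, and that of RRM2 without either WT2 library or the WT5 library without DOX, at adjusted p of 0.0531 to 0.248. RRM2 was also not called without clone WT2, at an edgeR adjusted p of 0.0897, or by DESeq2, at 0.0517. Without single WT5 libraries more members were called over the 3 clones, 5 without that with DOX, where 1886 of 11896 genes were called, and 9 without that without DOX, where 2286 of 12179 were called.

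Other members leaned the same way without passing. POLA1, TK1, CDT1, RFC2, RFC5, RRM1 and MCM2 also had both WT37 libraries below the other 4, which made 9 of 38 members with FEN1 and RRM2, beside 14.2% of all tested genes, and POLE alone had both above, beside 14.9%. For POLA1 the log2 difference was −0.54 for WT37 over WT2 and −0.49 for WT37 over WT5, at an edgeR adjusted p of 0.0714 over the 3 clones. For TK1 these values were −0.41 and −0.34, and for CDT1 −0.33 and −0.54. PRIM1 had −0.67 for WT37 over WT5 and GINS2 had −0.33, and neither passed. Over all members the median log2 difference was −0.088 for WT37 over WT2, −0.22 for WT37 over WT5 and 0.049 for WT5 over WT2, with 26 and 31 of 38 below 0 in the comparisons of WT37, beside 49.1% and 49.4% of all tested genes. The comparisons of WT37 share the WT37 libraries. MCM4 differed least, at 0.043 and 0.024 for WT37 over WT2 and over WT5.

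**Figure D4:**
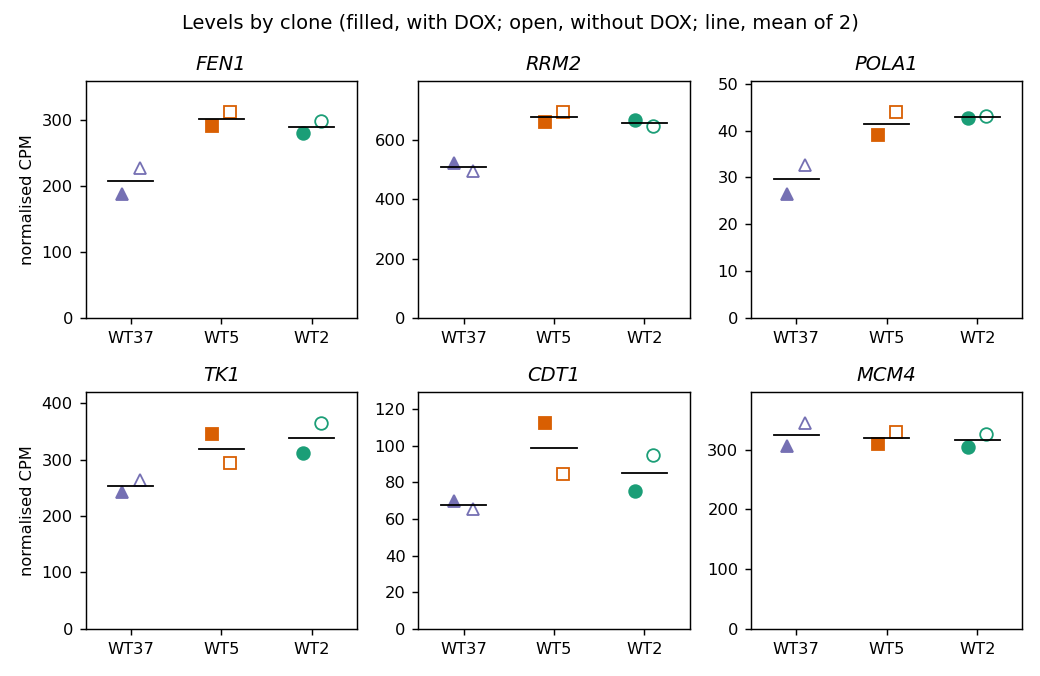
Normalised CPM (vertical axes, from 0) by clone for the 5 members with the smallest p between clones and for MCM4, which had the largest. Filled symbols are with DOX and open symbols without DOX, and lines are the mean of 2 libraries. Both WT37 libraries lie below the other 4 in FEN1, RRM2, POLA1, TK1 and CDT1, and the MCM4 clone means are level.

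Other genes of the pathway were read from a further list of 90 symbols, of which 87 were tested. For DOX 0 of 87 passed edgeR's test with or without the block, 54 of 87 had log2 differences below 0 in the fit without the block, and the median was −0.060. By role, the origin recognition and firing genes had a median of −0.066 over 19 genes, other polymerase and clamp genes −0.11 over 13, and regulators 0.037 over 27. Between clones 6 of the 87 passed, beside 6.84% of all tested genes, and BRCA1, MYBL2, E2F2, E2F6 and ORC6 were among them. BRCA1, a repair factor at stalled forks, had 27.7, 59.5 and 64.0 CPM with DOX in WT37, WT5 and WT2, against 32.7, 64.9 and 64.9 CPM without DOX, the lowest values being those of WT37. Of 28 mitosis genes 27 were tested for DOX, 0 passed edgeR's test with or without the block, and the median log2 difference was 0.027. By clone the median over those mitosis genes was −0.015 in WT37, −0.027 in WT5 and 0.12 in WT2, with 15, 16 and 5 of 27 below 0.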

How the data were processed

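Messenger RNA was measured in 6 QuantSeq 3′ FWD libraries of DLD-1 cells, per the labels' protocols. The authors deposited 1 table of read counts for Ensembl genes, whole numbers with no recorded normalization. The submitters' processing notes name GRCh38 and DESeq2. No source used here gives the aligner, counter, annotation or strand setting. Of all reads 4.29% to 5.25% were unmapped, 11.8% to 16.0% mapped to several places, 8.72% to 11.7% lay outside features and 6.85% to 7.40% were ambiguous, and these rows stayed out of library sizes and tests. Gene names were taken from an identifier table and GENCODE release 29, whose GRCh38 positions are given. The 3′ ends of 12 members lie in another annotated gene and 7 members have named pseudogenes, so these counts are uncertain.

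The 38 members, the lists and the tests were chosen with earlier results of these data known. Tests were run on the whole table in R 4.3.3 with edgeR 4.0.16 (TMM, filterByExpr, robust quasi-likelihood fit, Benjamini-Hochberg adjustment, threshold 0.05), and were also run on simulated data. In the simulation of the DOX fit with no block the clones did not differ. It therefore does not show how that fit behaves with the spread between clones seen here. DESeq2 1.42.0 and limma 3.58.1 (voom) were alternatives, as were other scalings and filters and leaving out libraries or clones. The DOX fit used 3 libraries per group with no block. The same clone was grown in both conditions, and deviations from the group means correlated within a clone (r = 0.55 in WT37, 0.28 in WT5 and 0.49 in WT2, across genes). The fit with the clone as block took the samples as paired by clone, and the fit with no block did not. Unless the block is named, the standard errors and adjusted p given for DOX are those of the fit with no block. With the clone as block the biological coefficient of variation was 10.9%, and 17.9% with no block. Libraries of a group differed by 6.11 to 18.3 times the degrees of freedom in a chi-square comparison, so none was a duplicate. Each clone gave 1 library per condition, and the p-values of the DOX fit without the block include the spread between clones, while those of the blocked fit and of the clone comparisons rest on what remains after clone and DOX are fitted. Standard errors are the size of the log2 fold change over the square root of F. Values in every library are given for the 12 members with the smallest p for DOX in the blocked fit, the 12 with the smallest p between clones, and MCM2 to MCM7. BRCA1 was the example of the other replication genes, of which those with the smallest p between clones are named, and a result of that list is not reported here. Promoter windows are from RefSeq on GRCh38.p14.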

Additional observations from a re-analysis of the deposited data

Results flagged for a closer look

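For 8 of the 38 members the DOX difference went in opposite directions in a pair of clones, with the 95% counting interval of each clone's value off 0, beside 8.46% of all tested genes. With 1 library per clone and condition, the difference between clones was not tested, and the intervals cover counting error only. The intervals are narrower for abundant genes such as most members, so the share over all tested genes is not of genes of like level.

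In GINS1, CDT1, MCM5, TK1 and MCM2, WT5 was the clone above 0 and the clone it was set against was below 0. The log2 difference in WT5 minus that in WT2 was 0.99 for GINS1, a GINS subunit, where WT5 had 0.44 and WT2 had −0.55. It was 0.76 for CDT1, the loading factor, 0.59 for MCM5, 0.46 for TK1, the thymidine kinase, and 0.33 for MCM2. For TK1 and MCM2 the difference in WT37 minus that in WT5 was −0.36 and −0.34.

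MCM3 and the remaining genes ran the other way. For MCM3 the value in WT37 minus that in WT2 was −0.51 and the value in WT5 minus that in WT2 was −0.39, with WT2 at 0.13. For CLSPN, the checkpoint adaptor, WT37 minus WT5 was 0.50, and for RRM2 it was 0.14.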

How the results depend on the processing

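No member was called for DOX under any scaling, filter or tool tried, with or without the replicate block. The same held with single libraries left out, which was tried only without the block. With a clone left out, 2 members, CDC6 and MCM7, were called in the blocked fit without clone WT5, and none otherwise. The blocked fits without a clone therefore gave 0 to 2 members. The median of the members stayed below 0 throughout, between −0.163 and −0.021 over fits without the block that left out a clone or library, and between −0.133 and −0.038 with the replicate block. Over all genes the DOX count was 152 with the block, 155 with the block and size factors, 94 with the block and library totals, 518 with the block and no filter, 95 with the block and the stricter filter of 50 reads in 3 libraries, 133 with the block in DESeq2 and 185 with the block in limma-voom. Without the block it was 206 with no filter and 57 in DESeq2. With a clone or library left out it was 0 to 35 with no block, and with the block 8 without WT2, 743 without WT5 and 5 without WT37.

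Between clones, 2 members were called over the 3 clones with size factors and 5 with no filter, and 0 to 9 when a clone or library was left out. For WT37 over WT2 the number was 0 with library totals, 4 with no filter and 0 to 6 with a clone or library left out. For WT37 over WT5 it was 1 with library totals, 1 in DESeq2, with RRM2 the member lost, and 0 to 9 with a clone or library left out. The number of all genes was 1783 with no filter, 441 in DESeq2 and 129 to 2286 with a clone or library left out. The cause of these shifts was not tested.

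Among single values, 9 changed sign. The DOX log2 difference was 0.033 for FEN1 and 0.035 for MCM2 when WT37 with DOX was left out, at the top of ranges over left-out clones and libraries that began at −0.27 and −0.18. For MCM5 it was 0.00063 with library totals, 0.099 without WT2 and 0.081 without WT2 in the blocked fit, 0.0093 without WT37 and 0.0071 without WT37 in the blocked fit, 0.061 without the WT2 library without DOX and 0.063 when WT37 with DOX was left out, over a range that began at −0.22. In the comparisons between clones, a clone that kept 1 library was assumed to vary like the others. Of the other single values 411 kept direction and side of the threshold, 15 lost a call and 2 gained one.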
